A study of Mus musculus with 12 samples.

Results

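The genes described here encode 10 receptors and ligands that set how strongly a T cell responds to antigen: the costimulatory receptors *Cd28*, *Icos* and *Cd226*, the inhibitory receptors *Ctla4*, *Pdcd1*, *Havcr2*, *Lag3*, *Tigit* and *Btla*, and the ligand gene *Cd274*. They were taken by name as members of this family, out of 21000 protein-coding genes with curated RefSeq transcripts. The choice was made with earlier results of these data known. A BATF peak belonged to a gene when its summit, the position of highest signal, lay in the gene body or within 50 kb of it on mm10 (GRCm38). By this rule 11 peaks belonged to 6 of the 10 genes, and merging peaks that shared at least 1 bp left 10 regions out of the 5873 of the whole data set.

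BATF was immunoprecipitated from Th9 and Th17 cells of C57BL6/J mice, with 2 BATF libraries per cell type, 1 and 2 for Th9 and 3 and 4 for Th17. Naive CD4+CD62L+ T cells were activated with antibodies to CD3 and to CD28, the product of *Cd28*. Th9 cultures received IL-4, IL-2, TGF-β1 and anti-IFNγ, whereas Th17 cultures received IL-6, TGF-β1, IL-23, IL-1β and antibodies to IFNγ, IL-4 and IL-2, and chromatin was taken on day 5. Each BATF library was matched by number to 1 input and 1 IgG library, and nothing states that libraries of a cell type came from separate mice or cultures, so the spread between them may be technical. For every peak the authors give a fold enrichment, the ratio of signal at the summit over that expected around it, and a −log10 q, the peak caller's false discovery rate on a log scale. Peaks called against input and IgG jointly numbered 1709 and 241 in Th9 libraries 1 and 2, and 4111 and 199 in Th17 libraries 3 and 4. The lists do not give the depth of each library, for which the study states a single approximate figure, and a gene without a peak fell short of the calling threshold there rather than being shown to be unbound.

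CD28 and ICOS add a costimulatory signal to that of the T cell receptor, and CTLA-4 opposes CD28 by competing for its shared ligands. PD-1, TIM-3, LAG-3, TIGIT and BTLA dampen activated T cells and are studied as checkpoints in chronic infection and in tumors. BATF is a basic leucine zipper factor that pairs with JUN proteins on AP-1 sites and acts with IRF4 in activated T cells.

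The sequences under the peaks that the results turn on are given on the strand of the gene, from GRCm38.p6. The region in the last intron of *Ctla4* runs from 60913356 to 60913690 of chromosome 1. Part of it (chr1:60913426-60913629, plus strand) is shown because the region was the only 1 of the 10 called in both cell types. Capitals mark the 84 bases that the peaks of Th9 library 2 and Th17 library 3 share. The *Ctla4* promoter peak of Th17 library 4 (chr1:60908789-60908994, plus strand) is shown whole, with 21 bases around its summit in capitals. The remaining sequences are parts of peaks around an AP-1 site, which is in capitals. They come from the *Havcr2* intron peak of Th9 library 1 (chr11:46474385-46474511, plus strand) and the peak downstream of *Icos* (chr1:61026821-61026947, plus strand).
Ctla4 intron: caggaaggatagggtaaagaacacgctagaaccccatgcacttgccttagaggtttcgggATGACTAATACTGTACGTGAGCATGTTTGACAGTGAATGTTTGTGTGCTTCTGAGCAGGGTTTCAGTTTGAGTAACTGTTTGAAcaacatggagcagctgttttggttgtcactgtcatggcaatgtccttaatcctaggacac
Ctla4 promoter: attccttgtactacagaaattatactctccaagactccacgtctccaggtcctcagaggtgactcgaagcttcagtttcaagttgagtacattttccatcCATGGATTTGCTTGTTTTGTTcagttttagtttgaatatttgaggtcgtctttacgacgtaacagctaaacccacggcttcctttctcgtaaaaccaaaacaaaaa
Havcr2 intron, Th9: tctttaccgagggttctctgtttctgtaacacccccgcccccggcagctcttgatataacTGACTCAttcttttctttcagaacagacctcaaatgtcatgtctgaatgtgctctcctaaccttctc
Icos downstream: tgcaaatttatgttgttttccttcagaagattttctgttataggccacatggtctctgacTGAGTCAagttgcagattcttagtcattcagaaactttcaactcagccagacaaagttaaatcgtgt

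Of the 6 genes with a peak, 4 had it in Th17 library 3 alone. A similar proportion of all genes with a peak had this pattern (3781 of 6138), so it does not set these genes apart. In Th17 library 3 a peak was found at 6 of the 10 genes, *Ctla4*, *Icos*, *Cd28*, *Havcr2*, *Lag3* and *Tigit*, against 22.2% of all 21000 genes by the same rule. Th17 library 4 had a peak at 1 gene, *Ctla4* (1.23% of all genes). Th9 library 1 had a peak at 1 gene, *Havcr2*, a share near that of all genes (9.43%). Th9 library 2 had a peak at 1 gene, *Ctla4* (1.74% of all genes). Taking either library of a cell type, 2 of the 10 genes had a peak in Th9 cells against 10.6% of all genes, and 6 of the 10 in Th17 cells against 22.5%. *Ctla4* and *Havcr2* were the 2 genes with a peak in both cell types, a pattern of 3.88% of all genes. *Havcr2* counts here through Th9 library 1 alone, which did not match its label at the *Il9* and *Il17a* loci (given at the end), and without that library 1 gene, *Ctla4*, remained. The counts also moved with the rule: with a −log10 q of at least 5, 1 gene had a Th9 peak, 3 had a Th17 peak and 0 had both. Within 100 kb, 4 genes had a Th9 peak, 8 had a Th17 peak and 4 had both. For these other rules the shares of all genes are not given here, so their counts cannot be set against all genes. The windows were of similar size, with a median of 122 kb for the 10 genes and 117 kb for all genes. No test was made of these counts, and with 10 genes a single gene moves the share by 10 percentage points. *Cd28*, *Ctla4* and *Icos* are neighbours, and the windows of *Ctla4* and *Icos* overlap, so the 10 genes are not 10 separate places. They were also chosen with earlier results of these data known, so the shares are not those of an unbiased set.

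**Figure D1:**
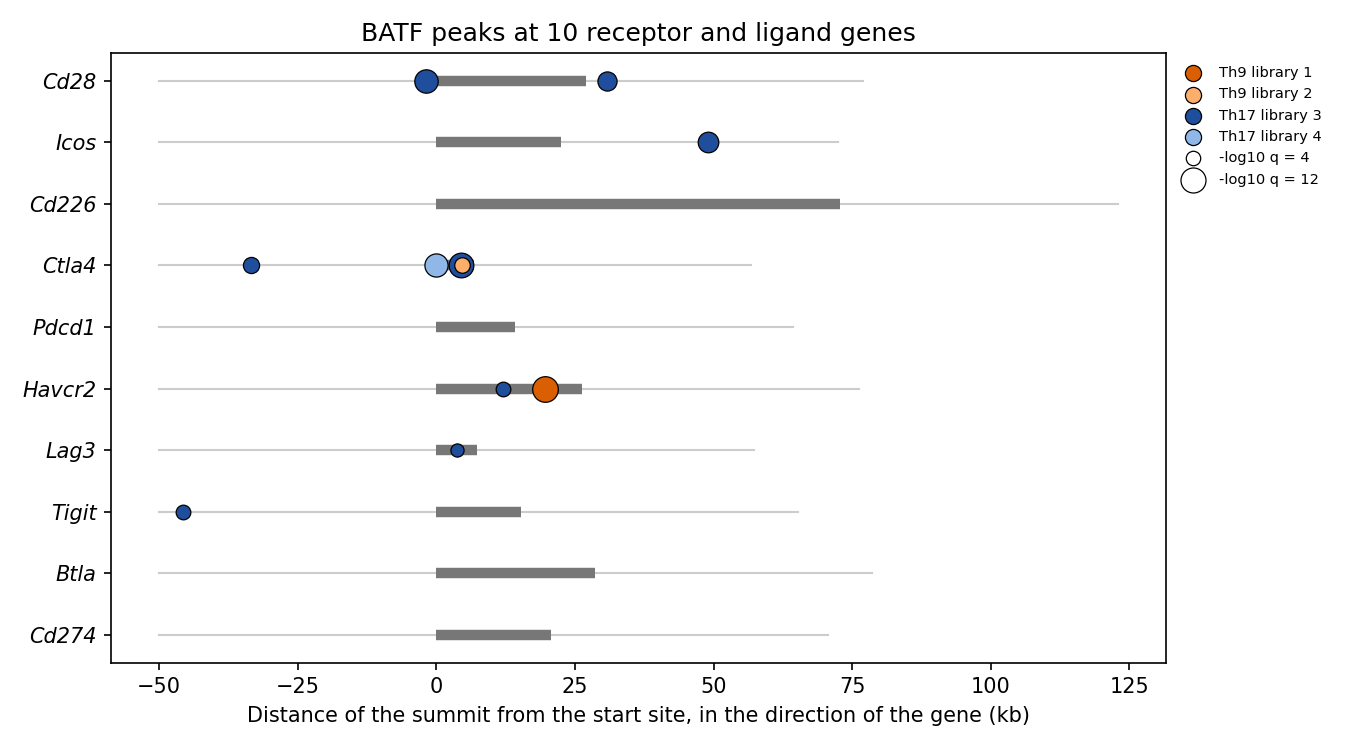
BATF peaks at the 10 genes, by distance of the summit from the start site of the gene (kb, negative upstream). Thick bars are gene bodies, thin lines the 50 kb to either side, and the area of a point is proportional to −log10 q; 8 of the 11 points are from Th17 library 3, and *Pdcd1*, *Btla*, *Cd274* and *Cd226* have none.

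**Figure D2:**
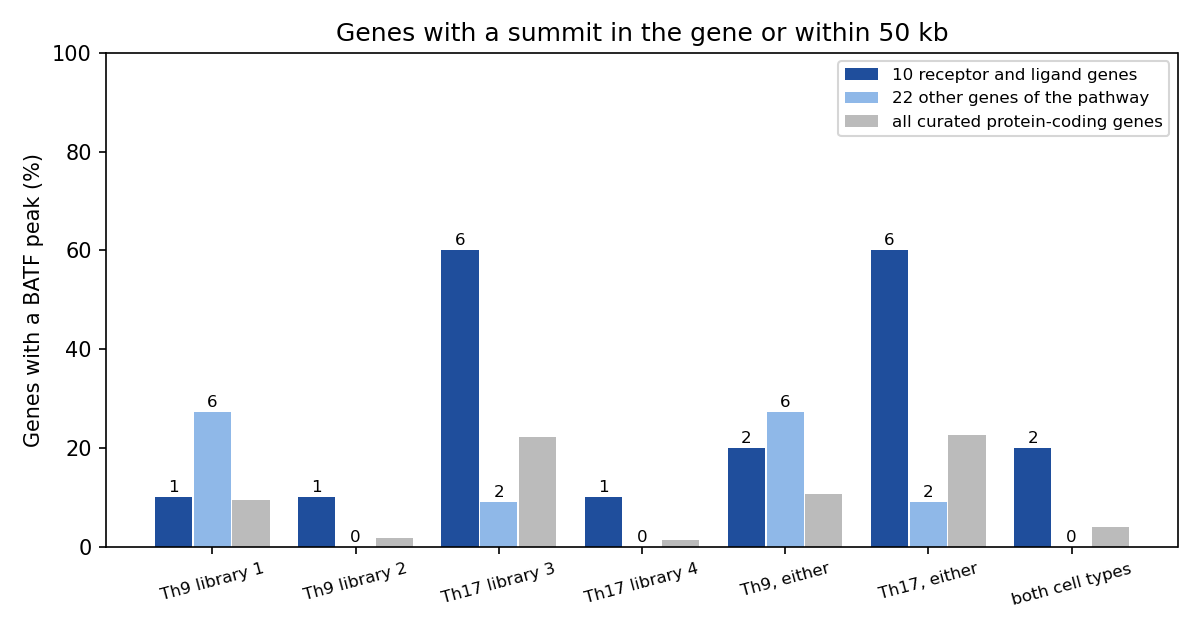
Percentage of genes with a BATF summit in the gene or within 50 kb, for the 10 receptor and ligand genes, 22 other genes of the pathway and all 21000 curated protein-coding genes, with counts above the bars. The 10 genes reach 60% in Th17 library 3 against 22.2% of all genes, and the 22 other genes reach 9.09%. In Th9 library 1 the shares are 10% of the 10 genes, 27.3% of the 22 and 9.43% of all genes.

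*Cd28*, the receptor for CD80 and CD86 that provides the main costimulatory signal of naive T cells, occupies 60746388 to 60773359 of chromosome 1 (plus strand). Th17 library 3 had a peak upstream of it, from 60744440 to 60744626, and its summit was at −1840 bp from the start of the gene, negative meaning upstream (fold enrichment 9.03, −log10 q 10.5). A further peak of the same library, from 60777059 to 60777238, lay between genes with its summit 3796 bp past the end of *Cd28* (fold enrichment 7.34, −log10 q 7.04). The other libraries had none in the window, and their nearest summits were 166212 bp (Th9 library 1), 140242 bp (Th9 library 2) and 135540 bp (Th17 library 4) from the gene. The upstream peak ranked 337th by −log10 q among the 4111 peaks of its library. In the lists named for a single control it was called against IgG, with the same fold enrichment of 9.03, but not against input, and 65.2% of its bases are masked as repeats. Neither *Cd28* peak had an AP-1 site within 100 bp of the summit.

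*Icos*, a costimulatory receptor of the CD28 family induced on activated T cells, follows on the same strand from 60977914 to 61000320. Its single peak, in Th17 library 3, ran from 61026771 to 61026953 between genes, 26544 bp past the end of the gene (fold enrichment 7.90, −log10 q 8.14). The other libraries had no peak in the window. The *Icos* peak held an AP-1 site from 61026881 to 61026887, whose centre was 20 bp from the summit. Against input only and against IgG only, the fold enrichment was again 7.90.

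Stronger peaks lay just past the 50 kb limit downstream of *Icos*, and they are given without a test. Th17 library 3 had a summit 50155 bp past the end of the gene, 155 bp outside the limit (fold enrichment 12.4, −log10 q 18.3). Farther out, at 54.3 kb, peaks of 3 libraries overlapped with their summits within 13 bp of each other. Th9 library 2 reached a fold enrichment of 9.40 there (−log10 q 11.5, rank 35 of 241). Th17 library 3 reached 15.3 (26.2, rank 33 of 4111), and Th17 library 4 reached 15.1 (25.2, rank 5 of 199). This place was thus among the stronger ones of each of these libraries. Th9 library 1 had no peak within 1 kb of this place in any of its 3 lists. The nearest curated start site to all 4 of these summits was that of *Icos*. The sequence of the nearer site (chr1:61050504-61050630, plus strand) is shown with its AP-1 site in capitals. That of the farther one (chr1:61054564-61054757, plus strand) has the 154 bases common to the 3 peaks in capitals, and holds the looser motif TGANTCA from 61054694 to 61054700 but no TGACTCA on either strand within 100 bp of the summit.
Icos nearer distal: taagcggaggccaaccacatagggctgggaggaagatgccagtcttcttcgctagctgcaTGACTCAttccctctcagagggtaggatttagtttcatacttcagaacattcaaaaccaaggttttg
Icos farther distal: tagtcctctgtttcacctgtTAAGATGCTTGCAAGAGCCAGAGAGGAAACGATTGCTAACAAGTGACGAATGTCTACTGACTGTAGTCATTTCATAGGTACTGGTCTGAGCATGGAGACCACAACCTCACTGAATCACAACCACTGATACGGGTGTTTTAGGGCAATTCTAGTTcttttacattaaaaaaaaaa

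*Ctla4*, the inhibitory receptor that binds the ligands of CD28, lies between these genes from 60909025 to 60915832. It had the most peaks of the 10 genes, 4 in 3 libraries, which merged to 3 regions. Of all 21000 genes, 288 (1.37%) had as many regions or more. The intron region was covered by the peak of Th17 library 3 (fold enrichment 9.60, −log10 q 11.7) and that of Th9 library 2 (6.40 and 4.62), with summits 4455 bp and 4576 bp into the gene. Both lay in intron 3 of the longer *Ctla4* transcript, which is its last. The summits were on opposite sides of the shared bases, and each peak reached less than 50% reciprocal overlap with the other. The peaks also held different places in their lists, with a lower −log10 q in 92.3% of the peaks of Th17 library 3 and in 38.2% of those of Th9 library 2.

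Th17 library 4 had its only *Ctla4* peak at the promoter, where the summit was at −126 bp (fold enrichment 9.19, −log10 q 10.3, higher than 70.4% of its list). Against input alone the fold enrichment of this promoter peak was 6.07, and against IgG alone it was 9.19. A further *Ctla4* region, from 60875400 to 60875632 in Th17 library 3, had its summit at −33533 bp between genes (fold enrichment 6.21, −log10 q 5.02). None of the 3 *Ctla4* regions held TGACTCA or the looser TGANTCA within 100 bp of the summit. Th9 library 1 had no *Ctla4* peak, and its nearest summit was 328849 bp away. The 2 Th17 libraries thus had no *Ctla4* region in common, and neither did the 2 Th9 libraries. The pattern of *Ctla4*, a peak in every library except Th9 library 1, was shown by 11 of the 21000 genes. That exact pattern was picked after the lists were seen. A peak in 3 or 4 libraries, whichever they were, was shown by 169 genes (0.805%).

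*Cd28*, *Ctla4* and *Icos* are neighbours, separated by 136 kb and 62.1 kb, and together they held 6 of the 10 regions. Over the 354 kb from 50 kb before *Cd28* to 50 kb past *Icos*, Th9 library 1 had 0 peaks, Th9 library 2 had 1, Th17 library 3 had 5 and Th17 library 4 had 1. No test was made of this density, which was 14.1 peaks per Mb in Th17 library 3 against 1.51 per Mb over all chromosomes. In Th9 library 1 the density was 0 against 0.627 per Mb, a rate at which a span of 354 kb can hold 0 peaks without any difference. Th9 library 2 and Th17 library 4 rest on 1 peak each (2.83 against 0.0884 and 0.0730).

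**Figure D3:**
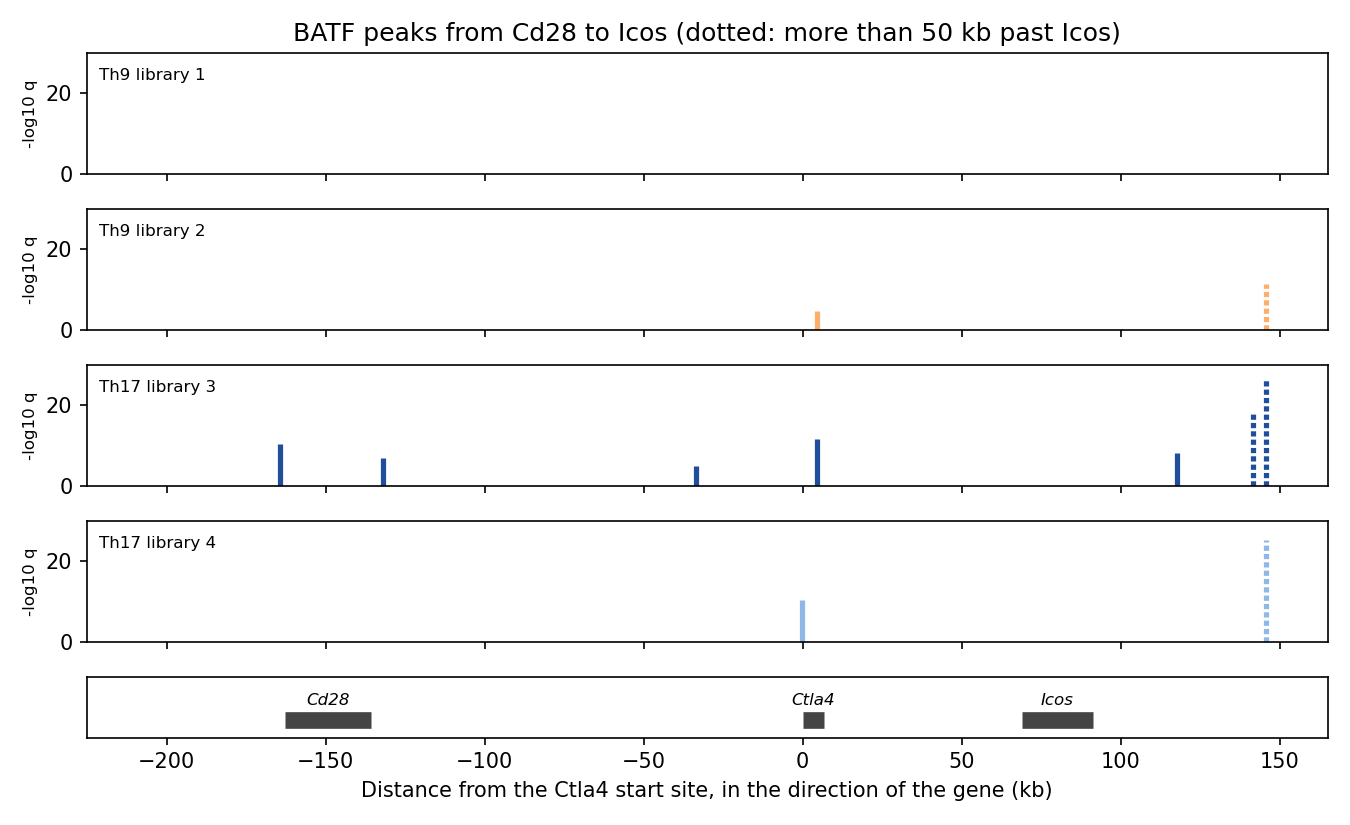
BATF peaks of the 4 libraries from *Cd28* to *Icos*, by distance from the *Ctla4* start site (kb), with −log10 q as the height of each line and gene bodies as bars. Solid lines are peaks in the gene windows and dotted lines those more than 50 kb past *Icos*, where Th9 library 2, Th17 library 3 and Th17 library 4 have a peak at the same place and Th9 library 1 has none.

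*Havcr2* encodes TIM-3, an inhibitory receptor of effector T cells, and occupies 46454931 to 46481255 of chromosome 11 (plus strand). The Th9 and Th17 peaks of this gene were at different places. The Th9 library 1 peak, from 46474291 to 46474634 in intron 5 of 6, was the stronger (fold enrichment 9.38, −log10 q 12.6). It ranked 50th of 1709 peaks, with a lower −log10 q in 97.1% of that list, the highest such share among the 11 peaks. Its AP-1 site, from 46474445 to 46474451, had its centre 5 bp from the summit. In Th17 library 3 the *Havcr2* peak lay in intron 4, from 46467023 to 46467192, and had no AP-1 site (fold enrichment 5.65, −log10 q 4.12). Its −log10 q was near the median of the list, which was also 4.12. Th9 library 2 and Th17 library 4 had no *Havcr2* peak, and 537 of the 21000 genes shared this pattern of libraries.

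*Lag3*, an inhibitory receptor for MHC class II, occupies 124904359 to 124911705 of chromosome 6 (minus strand). Its peak in Th17 library 3, from 124907862 to 124908029 in intron 5 of 7, was the weakest of the 11 (fold enrichment 5.08, −log10 q 3.32). The *Lag3* peak was called against input (fold enrichment 5.08) but not against IgG alone. It held an AP-1 site whose centre was 45 bp from the summit. The neighbouring gene *Cd4* shares the peak, since the summit was 19.8 kb upstream of the *Cd4* start site.

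*Tigit*, an inhibitory receptor for the nectin-like protein PVR, occupies 43648861 to 43664184 of chromosome 16 (minus strand). Its peak in Th17 library 3, from 43709838 to 43710016, was just inside the limit, with its summit at −45786 bp between genes (fold enrichment 5.65, −log10 q 4.12). A weaker peak of the same library lay 392 bp outside the limit on the other side of *Tigit* (fold enrichment 5.08, −log10 q 3.32). A peak of Th9 library 1 was 55.0 kb upstream of *Tigit* (fold enrichment 5.02, −log10 q 3.15). None of these 3 peaks had an AP-1 site. *Icos*, *Cd28*, *Lag3* and *Tigit* all had peaks in Th17 library 3 and in no other, as did 3781 of the 21000 genes (18.0%).

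*Pdcd1* (chromosome 1, 94038305 to 94052553), which encodes the inhibitory receptor PD-1, had no peak in any of the 12 lists. The nearest summit to *Pdcd1* was 281568 bp away in Th17 library 3 and at least 1537774 bp away in each of the other libraries. *Btla* (chromosome 16, 45224337 to 45252895), the inhibitory receptor that binds HVEM, also had none. The nearest summit to *Btla* was 53103 bp past its end, in Th17 library 3 (fold enrichment 6.15, −log10 q 5.16). *Cd274* (chromosome 19, 29367438 to 29388095) encodes PD-L1, the ligand of PD-1. Its nearest summits were 110770 bp away in Th17 library 3 and 110844 bp away in Th9 library 2. *Cd226* (chromosome 18, 89197427 to 89270327) encodes an activating receptor that shares ligands with TIGIT, and had the longest body of the 10 genes. Its nearest summit was 81321 bp away, in Th17 library 3. Genes without a peak in any library made up 70.8% of all genes, against 4 of these 10.

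AP-1 sites (TGACTCA on either strand, wholly within 100 bp of the summit of the strongest peak of a region) were found in 3 of the 10 regions, at *Icos*, *Lag3* and *Havcr2* (30%, exact 95% binomial interval 6.67% to 65.2%, which covers counting error only). The share was 17.0% of all 5873 regions, within this interval, and 3.42% of equally long windows placed 2000 bp away on each side. Where the −log10 q reached 8, 2 of 5 regions had an AP-1 site against 45.8% of all regions as strong, a limit chosen after the lists were seen. The looser motif TGANTCA, which includes the AP-1 site, added no region at these genes. It was present in 20.7% of all regions and in 5.99% of the windows 2000 bp away. The STAT motif (TTC, any 3 bases, then GAA) was in 0 of the 10 regions (interval up to 30.8%) and in 8.87% of all regions. Its share in the windows 2000 bp away was nearly as high, at 7.17%, so its absence does not set these genes apart. No region at these genes had GAAA directly before TGANTCA (0.971% of all regions) or TTTC placed 4 bases before TGANTCA (0.715%), the arrangements that join an IRF site to an AP-1 site. These matches describe the letters in the windows only.

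Of the 10 regions, 4 were in introns and 6 between genes, compared with 40.2% and 56.8% of all regions. A start site lay within 2000 bp of the summit for 2 of the 10, those upstream of *Cd28* and at the *Ctla4* promoter, and for 4.99% of all regions, although the 50 kb rule favours short distances. The *Ctla4* intron region was the only 1 of the 10 found in both cell types (10%), against 3.58% of all regions. The other 9 regions were each called in a single library, as were 95.3% of all regions. Th17 library 3 alone held 7 of the 10, and a similar share of all regions (3861 of 5873). The bases of the *Ctla4* intron region and the *Icos* region are free of masked repeats, whereas 39.3% of the *Lag3* region and 34.1% of the *Tigit* region are masked.

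**Figure D4:**
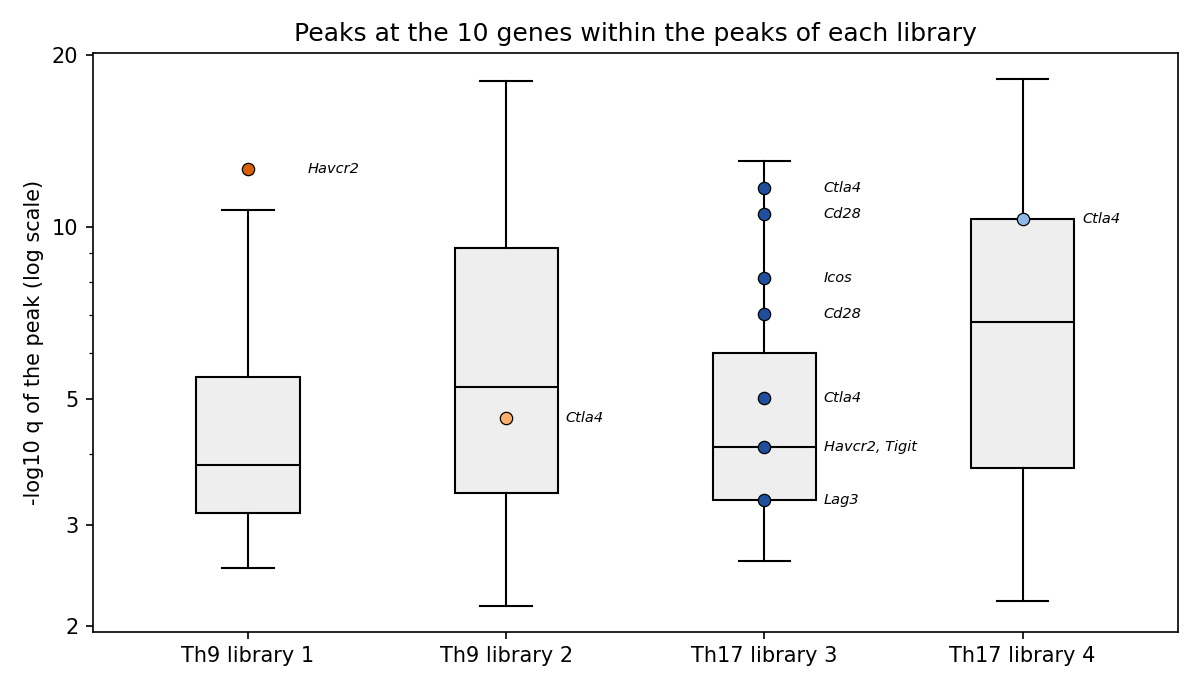
The −log10 q (log scale) of the peaks at the 10 genes, as points, over all peaks of each library, as boxes from the lower to the upper quartile with a line at the median and whiskers at the 5th and 95th percentiles. The *Havcr2* peak lies above the whisker of Th9 library 1 (10.7), and the *Lag3* peak is at the lower quartile of Th17 library 3 (3.32).

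The number of peaks at the 10 genes was 8 in Th17 library 3 and 1 in each of the other libraries. The means were 1 ± 0 in Th9 cells and 4.50 ± 4.95 in Th17 cells (SD, n = 2 libraries each). The difference was smaller than the spread of the Th17 libraries. With 6 arrangements of the libraries, an exact two-sided permutation test cannot give a p below 0.333. Since all libraries except Th17 library 3 had the same count, every arrangement gives a difference of the same size. The outcome (exact two-sided permutation test, p = 1) was thus fixed by the counts and decides nothing. Without Th17 library 3, each cell type averaged 1 peak per library at these genes, and 1 gene, *Ctla4*, had a Th17 peak. With the 199 strongest peaks of each library, the difference changed sign to −0.500 peaks per library. Th17 library 3 was also the library with the most peaks, and the part of its list length in the counts of these genes was not tested.

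The lists called against a single control gave nearly the same peaks at these genes. Of the 11 peaks, 10 were also called against input alone, all except that upstream of *Cd28*, and 10 against IgG alone, all except that in *Lag3*. No peak at these genes was called against a single control only. The fold enrichment of the *Havcr2* intron peak of Th9 library 1 was 7.34 against input and 10.6 against IgG, and that of the *Ctla4* intron peak of Th17 library 3 was 7.39 and 9.06.

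Among 22 other genes of the pathway, peaks were found mostly in Th9 library 1. In that library 6 of the 22 had a peak (27.3%, against 9.43% of all genes), through 5 distinct peaks. In Th17 library 3 it was 2 of the 22 (9.09%, against 22.2%). Th9 library 2 and Th17 library 4 had 0 of the 22 (against 1.74% and 1.23% of all genes), and 0 had a peak in both cell types (against 3.88%). At such low shares, 0 of 22 does not set these genes apart from all genes. The 6 genes of Th9 library 1 were *Cd86*, *Icosl*, *Nectin2*, *Havcr1*, *Timd4* and *Lair1*. *Icosl*, the ligand of ICOS, had its peak inside the gene 4332 bp past the start site (fold enrichment 5.54, −log10 q 3.82). The single peak shared by *Havcr1* and *Timd4*, which encode TIM-1 and TIM-4, lay at −4926 bp from the start of *Timd4*, with the same values. *Cd86*, a ligand of CD28 and CTLA-4, had its peak between genes, nearest to the start site of *Casr* (fold enrichment 5.36, −log10 q 3.82). The *Lair1* peak had a fold enrichment of 5.54 (−log10 q 3.82). The *Nectin2* peak, in a coding exon of *Apoe*, was weaker (fold enrichment 4.08, −log10 q 2.39), near the lowest −log10 q of its list (2.05). The 2 genes of Th17 library 3 were *Cd4*, through the *Lag3* intron peak, and *Vtcn1*, through a peak in an untranslated exon of *Trim45*. The *Vtcn1* peak was weak (fold enrichment 4.52, −log10 q 2.6) and lay 108 kb from the *Vtcn1* start site. Of these 8 genes, the peak of *Cd4* alone had an AP-1 site.

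As a check on the labels, peaks within 50 kb of lineage cytokine genes were looked up. *Il9* had 2 peaks in Th9 library 2 and none in the other libraries. The *Il17a* and *Il17f* locus had 1 peak in each Th17 library and 1 in Th9 library 1, with summits 9905 bp, 9946 bp and 9969 bp from the *Il17a* start site in Th9 library 1, Th17 library 3 and Th17 library 4. By presence of a peak, Th9 library 1, 1 of the 2 Th9 libraries, thus did not match its label at either locus, and the cause was not tested. Results that rest on this library alone carry this limit, among them the Th9 peak of *Havcr2*, the 6 pathway genes and *Tigit* in the Th9 counts within 100 kb.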

How the data were processed

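BATF, input and IgG libraries of Th9 and Th17 cells were sequenced, 12 in all, and the authors deposited 12 peak lists, 3 for each of 4 BATF libraries (against IgG, input, or both). The control of a list is known from its name only, and the peak names inside every list say input, those of the IgG lists included, so statements on a single control rest on the file names. The submitters' processing notes name Trim Galore 0.4.3, Bowtie2, MACS2 2.1.0 and mm10, and the study's methods state paired-end mode with duplicates kept. The units used were the fold enrichment, a ratio to local background, and the −log10 q-value, both as the authors deposited them. The lowest −log10 q in the lists against both controls was 2.01 to 2.21. The ATAC-seq and STAT5b data of the study were not analysed here.

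Gene bodies were spans of curated RefSeq transcripts on GRCm38.p6, and no peak ran past a chromosome end. Summits were assigned within 50 kb, overlapping peaks merged, and motifs searched within 100 bp of the summit. Peaks per library were compared with an exact two-sided permutation test over libraries, and other counts are descriptions beside the same counts over all genes or regions. All 10 genes are named whatever their peaks, and of a list of 22 other pathway genes those with a peak. Genes and lists were chosen with earlier results of these data known. Alternatives were each single control, calls against both singly, a minimum −log10 q of 5, limits of 10 kb and 100 kb, the nearest start site, equal numbers of top peaks, each library left out, 50% reciprocal overlap, regions present in each library of a cell type, a 50 bp window, whole regions, TGANTCA, and, chosen after seeing the data, RefSeq genes with predicted models and GENCODE genes. Simulated data were used to test the calculations. Software: matplotlib 3.10.9, pysam 0.24.0, scipy 1.17.1, pandas 2.3.3, numpy 2.4.6, run under Python 3.11.15.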

Additional observations from a re-analysis of the deposited data

Results flagged for a closer look

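Peaks between 50 kb and 100 kb from a gene, called against input and IgG, entered no comparison at the main limit, and 11 such peaks were seen at 5 of the genes in places outside the windows of the others. At *Icos*, the −log10 q at 54.3 kb was 26.2 in Th17 library 3, 25.2 in Th17 library 4 and 11.5 in Th9 library 2, and at 50.2 kb it was 18.3 in Th17 library 3. Of the 11 peaks, 10 were also called against each single control, among them all 4 at *Icos*. Near *Btla* it was 13.0 at 82.2 kb and 5.16 at 53.1 kb in Th17 library 3, and 2.92 at 89.5 kb in Th17 library 4. Near *Tigit* it was 3.32 at 50.4 kb in Th17 library 3 and 3.15 at 55.0 kb in Th9 library 1. Th17 library 3 also had a −log10 q of 6 at 92.0 kb from *Havcr2*, a peak not called against IgG alone, and of 2.60 at 81.3 kb from *Cd226*. An AP-1 site was present at 2 of the 11, the *Icos* peak at 50.2 kb and the *Btla* peak at 82.2 kb.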

How the results depend on the processing

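Of 89 recalculated values, 64 stayed near the reported one or kept its direction, 24 moved and the sign of 1 changed. No paired analysis was possible because Th9 and Th17 BATF libraries have no replicate number in common. Where values moved, the cause was not tested. When a −log10 q of 5 was required, 3 genes had a Th17 peak, 1 had a Th9 peak and 0 had both, and 0 regions were in both. When each list was shortened to its 199 strongest peaks, the difference in peaks per library changed sign to −0.500, genes in Th17 cells and in both were 1 each, and 0 regions were in both. Within 100 kb, 4 genes had a Th9 peak, 4 had peaks in both cell types and 2 regions were in both. By the nearest start site these values were again 4, 4 and 2. Genes with a Th17 peak were 4 within 10 kb, 8 within 100 kb and 9 by the nearest start site, the last with *Pdcd1*, *Btla* and *Cd226* added. The shares of all genes under the alternatives are not given here, so these counts are not compared with all genes. The difference in peaks per library, 3.5 as reported, was 7 within 100 kb (means 2 and 9, exact two-sided permutation p = 0.333, the smallest possible), 6.5 by the nearest start site and 2 within 10 kb. With 50% reciprocal overlap, 0 regions were in both cell types, as with regions called in both libraries of each cell type (0).

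Leaving out 1 library at a time gave a difference of 0 to 7 peaks per library, 1 to 2 genes in Th9 cells, 1 to 6 in Th17 cells, 1 to 2 in both and 0 to 1 regions in both. The value of 0 peaks and that of 1 Th17 gene were without Th17 library 3. The annotations chosen after seeing the data gave 3 Th9 genes, with *Icos* added (RefSeq with predicted models), and 7 Th17 genes, with *Btla* added (GENCODE). The AP-1 share was 22.2% to 33.3% under the alternatives run. These alternatives share regions with the main count and the interval is wide, so a share within it is no sign of stability. The lists hold no read counts, and the study gives a single approximate depth for its libraries, so how far depth limits each list was not tested.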
